A study of Mus musculus with 20 samples.

Results

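The 10 genes Foxl2, Wt1, Nr5a1, Nr5a2, Gata4, Gata6, Runx1, Runx2, Nr0b1 and Nr2f2 encode transcription factors that set or hold the identity of the somatic cells of the ovary, that is granulosa, theca and stromal cells. They were chosen by name, from a list of known factors of these cell types, with earlier results of these data known. Each symbol was matched to its Ensembl identifier, so that the factors are 10 of the 54838 genes counted. All 10 were found and all 10 passed the filter on low counts in every comparison. RNA came from whole ovaries of 20 female mice aged 77 days, each mouse giving 1 library. Both lines are outbred and descend from the same base population: the Dummerstorf control line (ctrl) was never selected, and the high-fertility line FL1 was selected over many generations for litter size and litter weight. Ovaries were taken in estrus or in diestrus, as read from vaginal smears, which gave 4 groups of 5 libraries, 1 for each line at each stage. None of the animals was treated or carried an engineered allele, each line is a single population, and oviduct, surrounding fat and tunica albuginea had been removed before RNA extraction.

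As background, the gonad primordium is built with WT1, GATA4 and NR5A1, which are needed before it becomes ovary or testis. FOXL2 is the factor that keeps granulosa cells from taking on the fate of Sertoli cells, the supporting cells of the testis, and RUNX1 shares this task in the fetal ovary. GATA4 and GATA6 act together in granulosa and theca cells. The orphan nuclear receptors NR5A1 and NR5A2 bind variants of the letters AGGTCA and switch on genes of steroid synthesis, NR5A2 chiefly in granulosa and luteal cells. NR0B1 binds these receptors and dampens their activity. RUNX1 and RUNX2 are induced in granulosa cells around ovulation, RUNX2 later than RUNX1, and NR2F2 marks the interstitial cells from which stroma and steroid-producing theca cells arise.

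Promoter windows of RefSeq (build GRCm38.p6, from 250 bases before to 50 bases after a transcript start) were given for 6 of the 10 genes, in 8 windows; Wt1, Nr5a1, Gata4 and Gata6 are named here without one. Windows of 3 genes that changed in abundance and that of Nr0b1, which holds the letters read by NR5A receptors, are printed 5′ to 3′ along the strand of the gene. Capitals mark matches, on either strand, to TGTGGT (bound by RUNX factors, ACCACA on the other strand), AGGTCA (nuclear receptors), GTAAACA or ATAAACA (forkhead factors) and TATAAA (the TATA box).
Foxl2, chr9:98955357-98955656, plus strand: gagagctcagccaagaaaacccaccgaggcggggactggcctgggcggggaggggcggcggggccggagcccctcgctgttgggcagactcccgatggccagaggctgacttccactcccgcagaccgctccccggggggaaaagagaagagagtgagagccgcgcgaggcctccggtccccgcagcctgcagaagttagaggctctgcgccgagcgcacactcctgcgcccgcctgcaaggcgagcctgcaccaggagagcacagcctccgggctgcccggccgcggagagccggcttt
Runx1, distal start, chr16:92826025-92826324, minus strand: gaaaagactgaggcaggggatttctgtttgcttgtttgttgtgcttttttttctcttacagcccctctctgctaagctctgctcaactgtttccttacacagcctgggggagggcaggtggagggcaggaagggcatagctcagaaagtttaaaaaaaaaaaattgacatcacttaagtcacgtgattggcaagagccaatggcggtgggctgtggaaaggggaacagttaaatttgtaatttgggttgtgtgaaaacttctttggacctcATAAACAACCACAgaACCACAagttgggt
Runx2, chr17:44814578-44814877, minus strand: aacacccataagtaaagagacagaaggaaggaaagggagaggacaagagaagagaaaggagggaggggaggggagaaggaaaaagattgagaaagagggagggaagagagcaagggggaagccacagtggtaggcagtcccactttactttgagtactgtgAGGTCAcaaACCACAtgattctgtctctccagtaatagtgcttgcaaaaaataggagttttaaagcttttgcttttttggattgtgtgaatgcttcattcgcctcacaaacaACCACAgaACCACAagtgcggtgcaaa
Nr0b1, chrX:86191525-86191824, plus strand: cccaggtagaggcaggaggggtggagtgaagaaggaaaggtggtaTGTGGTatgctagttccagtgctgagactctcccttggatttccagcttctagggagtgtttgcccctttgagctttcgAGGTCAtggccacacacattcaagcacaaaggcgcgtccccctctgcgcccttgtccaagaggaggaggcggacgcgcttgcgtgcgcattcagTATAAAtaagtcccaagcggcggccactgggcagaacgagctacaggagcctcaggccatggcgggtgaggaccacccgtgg
The Foxl2 window, with 71.3% G and C, held none of these letters. All of it lies inside the gene as annotated by GENCODE M21, which begins at 98955288, so the bases before that start were not searched. Both RUNX genes carried RUNX matches downstream of their start, beginning 28 and 36 bases after it in Runx1 and 23 and 31 bases after it in Runx2, and Runx2 had another 80 bases before it. Over all 32851 windows of the table, 16.8% held TGTGGT and 16.3% held AGGTCA, while the forkhead letters stood in 7.97% and TATAAA in 13.6%. A match of this length is a description of the letters and not a binding site. GATA words (GATA with A or T before and A or G after it, in 29.8% of windows) and GCGTGGG (read by EGR factors and WT1, in 5.04%) were searched as well and were absent from the 4 windows printed, and none of the marked matches overlapped another. Runx1 has a second, proximal start (chr16:92697280-92697579), whose window held no RUNX match and had GCGTGGG 233 bases before the start. Since the kit reads the 3′ end of a transcript, counts of the 2 starts cannot be told apart.

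Libraries held between 5991223 and 10352718 counts. 1 library stood apart, the ctrl library of replicate 5 in estrus, whose mean distance to the others of its group was 101 against 77.6 to 82.6 for those others (root of the summed squared differences of log2 CPM over genes). Calls that changed without it are given beside the results they belong to. Over both stages this distance lay between 75.8 and 101 in the ctrl libraries and between 63.2 and 71.1 in the FL1 libraries. Libraries of ctrl were thus more spread within their groups than those of FL1. Somatic markers of the ovary were high (summed CPM of 15 follicular granulosa genes between 2064.7 and 7148.4), and oviduct markers summed to at most 5.55 CPM. In estrus the oviduct sum lay between 2.66 and 5.55 CPM in FL1 and between 0.130 and 2.28 CPM in ctrl. In diestrus it lay between 1.83 and 4.58 CPM in FL1 and between 1.23 and 2.74 CPM in ctrl. Of the defining markers, Amh for granulosa cells (at most 0.565 CPM) and Insl3 for theca cells (at most 0.461 CPM) were at or near 0 in every library.

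Levels are given as CPM, counts scaled to a library total of 1000000 after TMM normalization over the 20 libraries. The kit makes 1 read per transcript near its 3′ end, so that CPM was not divided by transcript length. How well the 3′ ends of different genes were captured was not measured, and the order of levels below describes these counts. Averaged over the 20 libraries, Nr5a2 was the strongest expressed (488 CPM, range 322 to 767), followed by Nr2f2 (400.2 CPM, range 309.6 to 524) and Foxl2 (341 CPM, range 184 to 550.0). A middle group was formed by Gata6 (148 CPM), Nr5a1 (129 CPM), Gata4 (116 CPM) and Runx2 (112 CPM), and the ranges of neighbours within it overlapped. Runx1 (61.4 CPM) and Wt1 (56.9 CPM) followed with overlapping ranges, and Nr0b1 was weakest expressed with 7.51 CPM. The order by group means differed in places. In ctrl in estrus Nr2f2 (488 CPM) stood above Nr5a2 (422 CPM), in FL1 in diestrus Foxl2 (436 CPM) stood above Nr2f2 (352 CPM), and in FL1 in estrus Runx1 (87.9 CPM) stood above Runx2 (74.9 CPM). The 3 leading genes stood above 97.5% or more of all tested genes, Nr0b1 above 27.6%. Nr0b1 counts per library lay between 3 and 183, so that counting error is a part of its spread, whereas no library held fewer than 147 counts of any other factor.

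**Figure D1:**
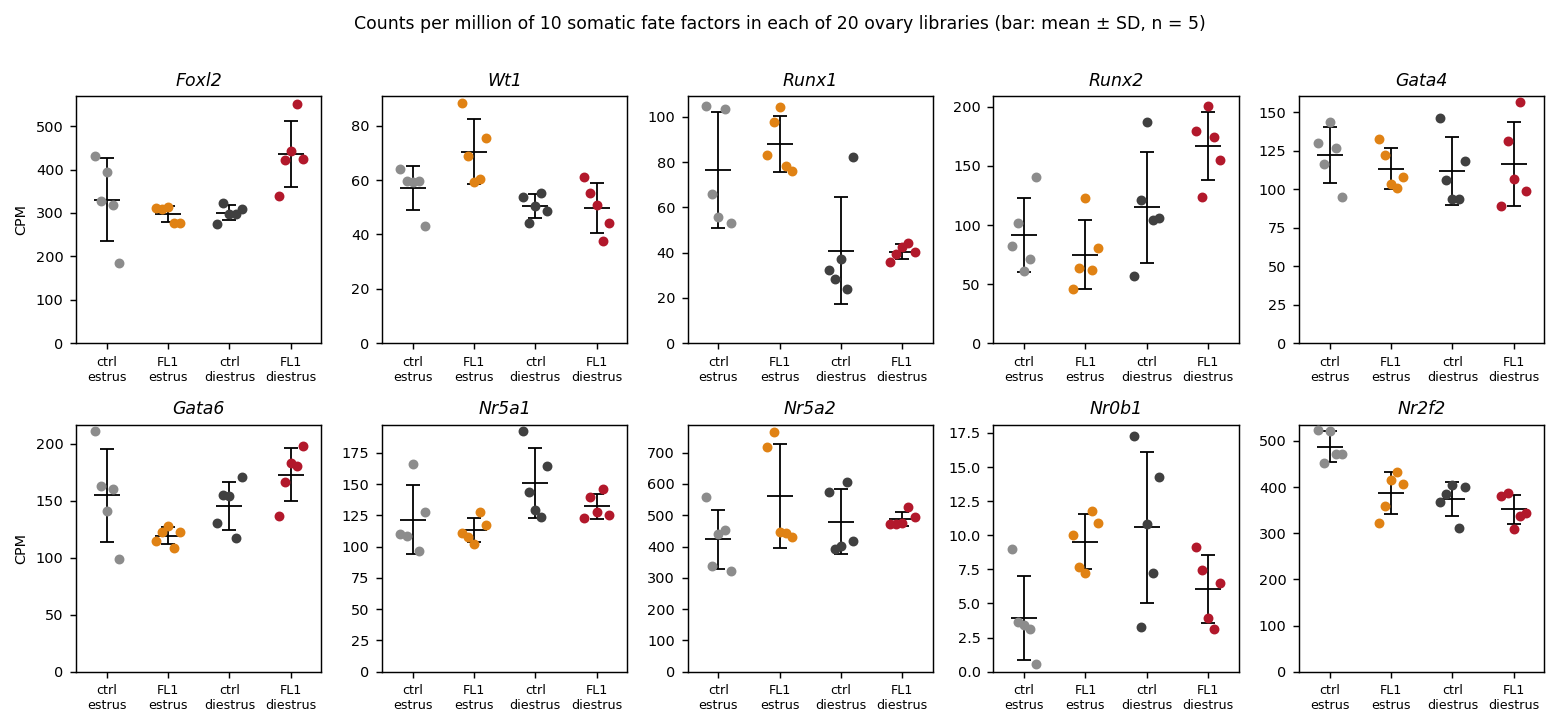
CPM of each factor (y axis, from 0) in the 4 groups (x axis), 1 point per library, with bars for mean ± SD (n = 5). In FL1, Runx1 sits between 76.1 and 104 CPM in estrus and between 35.9 and 44.3 CPM in diestrus, while Runx2, Gata6 and Foxl2 are higher in diestrus in all 5 libraries than in any of estrus.

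Whether the factors change through the cycle was asked within each line. In FL1, 5 of the 10 factors differed between diestrus and estrus. Runx2, Foxl2 and Gata6 were stronger expressed in diestrus, whereas Runx1 and Wt1 were weaker expressed. The largest differences were those of the RUNX genes, which went in opposite directions: Runx2 was 2.22-fold higher and Runx1 2.17-fold lower in diestrus. Of all 13350 genes tested in this comparison 15.9% were called (8.49% higher and 7.42% lower), so that a share of 5 in 10 stands against a high background. The median absolute log2 fold change (log2FC) was 0.52 over the 10 factors and 0.22 over all genes tested. As in every whole-organ measurement, fewer cells of a type and less RNA per cell cannot be told apart.

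Runx1, a granulosa factor of the fetal ovary and of the follicle at ovulation, was read at 83.1, 97.6, 104, 78.2 and 76.1 CPM in the FL1 libraries of estrus and at 35.9, 39.6, 42.3, 44.3 and 40.1 CPM in those of diestrus. The diestrus libraries lay close together and all of them were below all of estrus. The log2FC was −1.12 (SE 0.10, edgeR adjusted p = 2.63e-06). Runx2, which rises in granulosa cells on their way to luteal cells, was read at 45.8, 63.6, 123, 62.1 and 80.5 CPM in FL1 in estrus and at 179.6, 124, 201, 174 and 155 CPM in FL1 in diestrus. The groups did not overlap, although the highest library of estrus came within about 1 CPM of the lowest of diestrus, and the log2FC was 1.15 (SE 0.20, edgeR adjusted p = 0.000835). Supt3, which lies on the other strand across Runx2, had 90 to 333 counts per library against 312 to 1277 for Runx2, and the strand setting of the counting was not given in the sources used here.

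Foxl2, the keeper of granulosa identity, was read at 311, 309.8, 313, 278 and 276 CPM in FL1 in estrus and at 339, 422, 442, 550.0 and 425 CPM in FL1 in diestrus. All 5 diestrus libraries were above all of estrus, with a log2FC of 0.55 (SE 0.11, edgeR adjusted p = 0.00195). Gata6, the GATA factor of granulosa and theca cells that persists in luteal tissue, moved in the same direction. It was read at 115, 122, 128, 109 and 123 CPM in estrus and at 136, 166, 183, 180.5 and 198 CPM in diestrus. Again the groups did not overlap, and the log2FC was 0.54 (SE 0.094, edgeR adjusted p = 0.00103). Its relative Gata4 had means of 113 ± 13.4 and 116.5 ± 27.5 CPM (SD, n = 5) with a log2FC of 0.041 (SE 0.13, edgeR adjusted p = 0.874).

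Wt1, a zinc-finger factor of the early gonad that is found in granulosa cells of small follicles, was read at 88.2, 69.0, 59.4, 60.2 and 75.5 CPM in FL1 in estrus and at 61.3, 55.2, 50.7, 37.5 and 44.1 CPM in FL1 in diestrus. The groups overlapped in that the highest diestrus library was above the lowest pair of estrus. The log2FC was −0.50 (SE 0.14, edgeR adjusted p = 0.0209), and the call was lost without FL1 replicate 4 of diestrus (log2FC −0.41, SE 0.13, edgeR adjusted p = 0.0555). For 4 factors the groups did not overlap, in a comparison in which this held for 12.2% of all genes tested.

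The nuclear receptors did not pass the threshold in FL1. Nr5a1 had 113 ± 9.79 CPM in estrus and 132 ± 10.0 CPM in diestrus (log2FC 0.23, SE 0.084, edgeR adjusted p = 0.0744). Nr5a2 was read at 716, 767, 446, 444 and 431 CPM in estrus, a pair of high libraries beside 3 lower ones, and at 473 to 526 CPM in diestrus (log2FC −0.20, SE 0.15, edgeR adjusted p = 0.406). Nr0b1 (log2FC −0.65, SE 0.28, edgeR adjusted p = 0.122) and Nr2f2 (log2FC −0.14, SE 0.093, edgeR adjusted p = 0.355) were not called either.

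Steroidogenic genes known as targets of NR5A receptors were stronger expressed in FL1 in diestrus in 7 of 11 tested and weaker in none, with a median log2FC of 0.79, although neither receptor gene was called. Those with the smallest p were Cyp17a1 (log2FC 3.83), the enzyme that makes androgens, Lhcgr (2.64), the receptor of luteinizing hormone, Scarb1 (1.18), which takes up cholesterol, and Hsd3b1 (0.78), which makes progesterone. Cyp11a1, the strongest expressed gene of this list, had a log2FC of 0.79. Of 9 luteal genes 5 rose and 2 fell, among them Hsd17b7 (log2FC 5.41), Lhcgr, Prlr (1.40), the prolactin receptor, and Sfrp4 (1.13) upwards, and Ptn (−1.03) and Parm1 (−0.81) downwards. Akr1c18, the strongest expressed luteal gene, whose enzyme breaks down progesterone, was not called (log2FC −0.19). Follicular granulosa genes rose in 4 of 14 and fell in 2, with Cyp19a1 (log2FC 1.38), the aromatase, Gja1 (0.53), Inhba (0.81) and Nap1l5 (0.49) upwards and Amhr2 (−0.53) and Gatm (−0.72) downwards, and Inha, the strongest expressed of them, was not called (−0.015). Lhcgr stands in the steroidogenic and the luteal list, Cyp19a1 and Inha in the steroidogenic and the granulosa list, and Cyp17a1 in the steroidogenic and the theca list.

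Among 26 tested other regulators of somatic fate 1 rose and 4 fell between estrus and diestrus in FL1. Runx3, the remaining RUNX gene, rose from 15.9 ± 7.61 to 32.2 ± 4.09 CPM (log2FC 1.01, SE 0.25, edgeR adjusted p = 0.0104), so that Runx2 and Runx3 went up where Runx1 went down. Cbfb, which encodes the partner that RUNX proteins share, had a log2FC of −0.073 (SE 0.090, edgeR adjusted p = 0.634). Lhx9 (log2FC −0.64) and Zfpm2 (−0.49), which encodes the cofactor of GATA4, fell, as did the ovary-determining signal Wnt4 (−0.49) and the WT1 cofactor Cited2 (−0.41), all with edgeR adjusted p between 0.0147 and 0.0479. Ctnnb1, the strongest expressed of the list, was not called (log2FC −0.21). Of 7 tested testis fate genes Ptgds rose (log2FC 0.79), and Sox9, which FOXL2 holds down, had a log2FC of −0.38 (SE 0.19, edgeR adjusted p = 0.192).

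Markers of other cell types moved with the stage in FL1. Of 8 endothelium markers 5 rose, Kdr, Egfl7, Pecam1 and Cdh5 among them, and the summed level lay between 269.7 and 344.7 CPM in estrus and between 433 and 541 CPM in diestrus. Stroma genes fell in 6 of 10, with Col3a1, Col1a1, Pdgfra, Lum and the strongest expressed, Col1a2 (log2FC −0.48), among them, and their sum lay between 3354.9 and 5566.7 CPM in estrus and between 2090.6 and 2916.6 CPM in diestrus. Surface epithelium markers fell in 4 of 9, namely Krt7, Krt19, Upk3b and Krt18, with sums of 143 to 242 CPM in estrus and 90.2 to 132 CPM in diestrus. The theca list rose in 3 of 9 (Cyp17a1, Aldh1a1 and Fbln5) and fell in 1 (Mgarp), and the red blood cell list rose in 4 of 5 (Hbb-bs, Hbb-bt, Hba-a1 and Alas2). Smooth muscle markers fell in 3 of 8 (Des, Tagln and Cnn1), oocyte markers in 1 of 12 (Bmp15) and fat markers in 1 of 5 (Fabp4). The strongest expressed of these 3 lists, Acta2 (log2FC −0.33), Gdf9 (−0.67) and Plin1 (−0.43), were not called, and of 7 white blood cell markers none was called by edgeR, DESeq2 or limma-voom or had an unadjusted p under 0.05. All genes of the endothelium, stroma, surface epithelium, red blood cell and smooth muscle lists were detected in each group. The part of these cell types in the changes of the 10 factors was not tested.

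**Figure D2:**
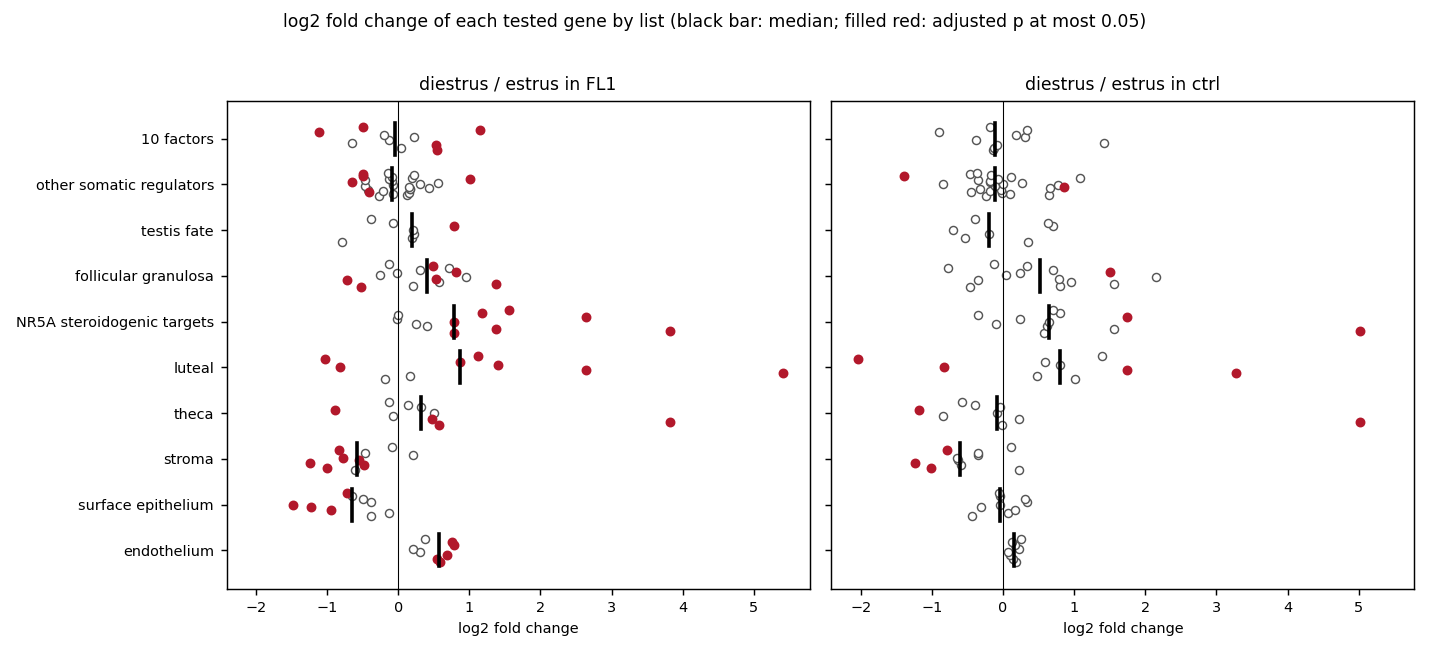
log2FC of diestrus against estrus (x axis) for every tested gene of 10 lists (y axis), in FL1 on the left and in ctrl on the right, with filled points for edgeR adjusted p of at most 0.05 and black bars for list medians. The 10 factors scatter around 0 with called genes on both sides in FL1, while the medians of the steroidogenic targets are 0.79 in FL1 and 0.64 in ctrl.

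In ctrl, none of the 10 factors passed the threshold between diestrus and estrus, where 2.85% of 13334 genes tested were called at the adjusted threshold. An unadjusted p under 0.05 was found for 3 of the 10, and the share of all genes at that mark is not given here. DESeq2 called 1 of the 10 factors and limma-voom 2. The lowest estimate was that of Runx1, and whether it was called depended on 1 library and on the tool. Runx1 was read at 105, 65.7, 55.8, 103 and 53.3 CPM in ctrl in estrus and at 32.4, 28.3, 37.2, 24.2 and 82.4 CPM in ctrl in diestrus. Replicate 5 of diestrus stood at the level of estrus, and the other 4 were below all of estrus. With all libraries the log2FC was −0.91 (SE 0.31, edgeR adjusted p = 0.155), and without that replicate it was −1.32 (SE 0.23, edgeR adjusted p = 0.0112). The call was also made by limma-voom with sample weights (adjusted p = 0.0252) and with all 20 libraries in 1 edgeR fit (adjusted p = 0.0306).

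Nr2f2, the factor of interstitial and theca progenitor cells, was read at 524, 452, 521, 471 and 471 CPM in ctrl in estrus and at 369, 384, 404, 312 and 400.5 CPM in ctrl in diestrus. All 5 diestrus libraries were below all of estrus. Of all genes tested in this comparison, 4.52% had groups that did not overlap, in either direction. The log2FC was −0.38 (SE 0.10, edgeR adjusted p = 0.0652), and the gene was called by DESeq2 (adjusted p = 0.00992), by limma-voom (adjusted p = 0.0254) and in the edgeR fit of all 20 libraries (adjusted p = 0.0172). Runx2, with 82.5, 102, 61.4, 71.6 and 140.3 CPM in estrus and 56.9, 121, 187, 105 and 106 CPM in diestrus, overlapped widely (log2FC 0.33, SE 0.28, edgeR adjusted p = 0.638). Nr0b1, the antagonist of NR5A receptors, had 8.97, 3.64, 3.39, 3.11 and 0.527 CPM in estrus and 17.3, 3.28, 10.8, 7.24 and 14.3 CPM in diestrus. Its log2FC of 1.42 came with an SE of 0.53 and an edgeR adjusted p of 0.193, and the lowest value was that of the library that stood apart (log2FC 1.16, SE 0.46, edgeR adjusted p = 0.195 without it).

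Foxl2 (log2FC −0.14, SE 0.18), Gata6 (−0.087, SE 0.17), Gata4 (−0.13, SE 0.14), Wt1 (−0.18, SE 0.12), Nr5a1 (0.31, SE 0.16) and Nr5a2 (0.18, SE 0.17) were not called in ctrl, with edgeR adjusted p between 0.386 and 0.873. Without the library that stood apart the estimates of Foxl2 and Gata6 were −0.29 (SE 0.11) and −0.21 (SE 0.14), that of Runx2 was 0.54 (SE 0.26) and that of Nr5a2 was 0.10 (SE 0.17), none of them called. In the library that stood apart, Foxl2 was at 184 CPM and Gata6 at 98.8 CPM, the lowest values of the 20 libraries for both genes, and without it none of the 10 factors was called in this comparison either. Of the steroidogenic targets 2 of 11 rose in ctrl, Cyp17a1 (log2FC 5.02) and Lhcgr (1.75), and without that library 4 of 11, with Cyp11a1 and Fdx1 added. Of 25 other regulators Foxo1 rose (log2FC 0.85) and Wnt4 fell (−1.39), and without that library Cited2 and Znrf3 were called lower as well. Of 10 stroma genes 3 fell (Col3a1, Col1a1 and Pdgfra), and 4 without that library, with Col1a2 added. Luteal genes rose in 2 of 9 (Hsd17b7 and Lhcgr) and fell in 2 (Ptn and Parm1), and without that library they rose in 4, with Prlr and Sfrp4 added, and fell in 1, the call of Parm1 being lost. The theca list had 1 gene called in each direction, Cyp17a1 upwards and Mgarp downwards, and without that library Ptch1 was called lower as well. Inhba of the granulosa list rose (log2FC 1.50), and without that library Gja1 was called higher and Amhr2 lower. Smooth muscle markers fell in 2 of 8 (Tagln and Myh11) with and without it. Cd68 of the white blood cell list fell (log2FC −0.82, edgeR adjusted p = 0.0437), and this call was lost without that library (−0.66, edgeR adjusted p = 0.0543). None of the testis, surface epithelium, oocyte, endothelium, red blood cell and fat lists had a gene called by edgeR (6 of 43 entries had an unadjusted p under 0.05, and DESeq2 called 1).

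What sets FL1 apart from ctrl was asked at the same stage. In diestrus, Foxl2 was the only one of the 10 factors that was called between the lines, and it was stronger expressed in FL1. Foxl2 was read at 275, 323, 298, 298 and 309 CPM in ctrl and at 339, 422, 442, 550.0 and 425 CPM in FL1. All 5 libraries of FL1 were above all of ctrl, and the fold change was 1.45 (log2FC 0.53, SE 0.11, edgeR adjusted p = 0.0132). The call held when each library was left out in turn, and was missed with all 20 libraries in 1 fit (adjusted p = 0.0562). The study also measured Foxl2 in diestrus by quantitative PCR, on more animals per line. That estimate of FL1 against ctrl was below 0 and carried no mark of significance, whereas the study's sequencing estimate was above 0. The higher Foxl2 of FL1 thus rests on the sequencing alone. Of all 13259 genes tested 4.11% were called, and in 5.45% the groups did not overlap. The median absolute log2FC was 0.14 over the 10 factors and 0.16 over all genes. The antisense gene Foxl2os had at most 34 counts in a library.

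Runx2 was read at higher values in FL1 than in ctrl in diestrus (means of 167 ± 29.0 and 115 ± 46.8 CPM, SD, n = 5), and the groups overlapped because of ctrl replicate 3 with 187 CPM. The log2FC was 0.54 (SE 0.23, edgeR adjusted p = 0.229), and 0.78 (SE 0.19, edgeR adjusted p = 0.0378) without that replicate. Gata6, with 130.4, 155, 154, 117 and 171 CPM in ctrl, had a log2FC of 0.25 (SE 0.12, edgeR adjusted p = 0.292). Nr0b1 had 10.6 ± 5.54 CPM in ctrl and 9.16, 7.45, 3.94, 3.11 and 6.50 CPM in FL1 (log2FC −0.82, SE 0.39, edgeR adjusted p = 0.292). The other 6 factors had log2FC between −0.19 and 0.058 with edgeR adjusted p of at least 0.430.

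None of 25 other regulators was called between the lines in diestrus by edgeR, DESeq2 or limma-voom, 3 having an unadjusted p under 0.05. Of 14 follicular granulosa genes Nap1l5 (log2FC 0.84) and Serpine2 (0.49) were stronger and Grem1 (−1.97) weaker expressed in FL1. Of 11 steroidogenic targets Lhcgr (log2FC 1.43) was called, and of 9 luteal genes Lhcgr and Hsd17b7 (2.05). Estimates were above 0 for 6 of the former and 5 of the latter. Sox9, the testis gene that FOXL2 opposes, had 18.0 ± 3.32 CPM in ctrl and 12.1 ± 3.37 CPM in FL1 (log2FC −0.57, SE 0.20, edgeR adjusted p = 0.144). Markers called in other lists were Egfl7 of endothelium (0.65), Gpm6a of surface epithelium (−0.86), Lyz2 (1.31) and Cd68 (0.79) among 7 markers of white blood cells and Hba-a2 of red blood cells (4.77), and no theca, stroma, oocyte, smooth muscle, fat or testis gene was called by edgeR (with the other regulators 11 of 72 list entries had an unadjusted p under 0.05, and DESeq2 and limma-voom called none). Of 8 endothelium markers 5 estimates were above 0 and 3 below, and of 9 surface epithelium markers 3 were above 0 and 6 below. All 5 red blood cell estimates were above 0. Of the white blood cell list 4 estimates were above 0 and 3 below, and Csf1r, which was not called by edgeR, had a log2FC of −0.54 (SE 0.16, edgeR adjusted p = 0.0848). Granulosa list sums lay between 4663.4 and 6550.5 CPM in ctrl and between 4970.4 and 7148.4 CPM in FL1. Their part in the difference of Foxl2 was not tested.

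In estrus, none of the 10 factors was called between the lines by edgeR, where 2.33% of 13374 genes were called at the adjusted threshold. An unadjusted p under 0.05 was found for 4 of the 10, and the share of all genes at that mark is not given here. The median absolute log2FC was 0.29 over the 10 factors and 0.18 over all genes. Nr2f2 was weaker expressed in every FL1 library (322, 358, 416, 432 and 407 CPM) than in any of ctrl, with a log2FC of −0.34 (SE 0.10, edgeR adjusted p = 0.121). Groups that did not overlap, in either direction, were found for 4.89% of all genes. DESeq2 called Nr2f2 (adjusted p = 0.0467). Gata6 was read at 211, 163, 141, 160.0 and 98.8 CPM in ctrl, and only the library that stood apart was below the FL1 libraries. Its log2FC was −0.38 (SE 0.15, edgeR adjusted p = 0.242), and −0.50 (SE 0.11, edgeR adjusted p = 0.0277) without that library.

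Nr0b1 had 9.98, 7.65, 7.23, 11.8 and 10.9 CPM in FL1 in estrus, above 4 of the 5 ctrl libraries. The log2FC was 1.26 (SE 0.43, edgeR adjusted p = 0.168), 1.80 (SE 0.39, edgeR adjusted p = 0.0312) without ctrl replicate 1, and 1.00 (SE 0.33, edgeR adjusted p = 0.122) without the library that stood apart. Wt1 was read at 63.9, 59.6, 59.2, 59.8 and 43.2 CPM in ctrl in estrus (log2FC 0.30, SE 0.14, edgeR adjusted p = 0.297). Foxl2 was read at 431, 328, 394, 317 and 184 CPM in ctrl, a wider spread than the 276 to 313 CPM of FL1, with a log2FC of −0.15 (SE 0.17, edgeR adjusted p = 0.737), and −0.30 (SE 0.11, edgeR adjusted p = 0.154) without the library that stood apart. Nr5a2 (0.41, SE 0.20), Nr5a1 (−0.10, SE 0.14), Gata4 (−0.11, SE 0.12), Runx1 (0.20, SE 0.19) and Runx2 (−0.28, SE 0.25) had edgeR adjusted p between 0.334 and 0.775. Without that library Gata4 had −0.19 (SE 0.11), Runx1 0.094 (SE 0.18) and Runx2 −0.073 (SE 0.23), and these were not called either.

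Of 26 other regulators Esr1, the estrogen receptor that is prominent in theca and stroma, was weaker expressed in FL1 in estrus, with 44.4 ± 8.18 against 74.1 ± 15.1 CPM (log2FC −0.74, SE 0.16, edgeR adjusted p = 0.0263). Of 8 tested testis fate genes Gdnf (log2FC 1.50) was higher and Cyp26b1 (−1.37) lower. Por (−0.70) of the steroidogenic targets, Mfap4 (−1.14) of stroma and Rgs5 (−1.41) of smooth muscle and pericytes were lower, and Upk3b (0.69) among 9 markers of surface epithelium and Lyz2 (1.10) among 7 of white blood cells were higher. Estimates were below 0 for 6 of 11 steroidogenic targets, 8 of 10 stroma genes and 7 of 8 smooth muscle and pericyte markers. They were above 0 for 7 of the 9 surface epithelium markers and for 4 of the 7 white blood cell markers. Gpm6a (−0.66, edgeR adjusted p = 0.161) of the former and Csf1r (−0.61, edgeR adjusted p = 0.204) of the latter were below 0 and not called. The granulosa, luteal, theca, oocyte, endothelium, red blood cell and fat lists had no gene called by edgeR. Of their 60 entries 14 had an unadjusted p under 0.05. Together with the oviduct list, of which edgeR tested no gene, DESeq2 and limma-voom called 6 and 3. Of the DESeq2 calls 1 was an oviduct marker. Without the library that stood apart, edgeR also called Cfd (log2FC 2.66) and Fabp4 (2.25) of 3 tested fat markers, Inhba (1.01) of the granulosa list, Fst (1.04) of the other regulators and Lrrn4 (1.21) of surface epithelium higher, and Aldh1a1 (−0.87) of the theca list and Sox9 (−0.68) of the testis list lower. Stroma list sums lay between 3867.9 and 6312.3 CPM in ctrl and between 3354.9 and 5566.7 CPM in FL1, and the part of stromal cells in the values of Nr2f2 was not tested.

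**Figure D3:**
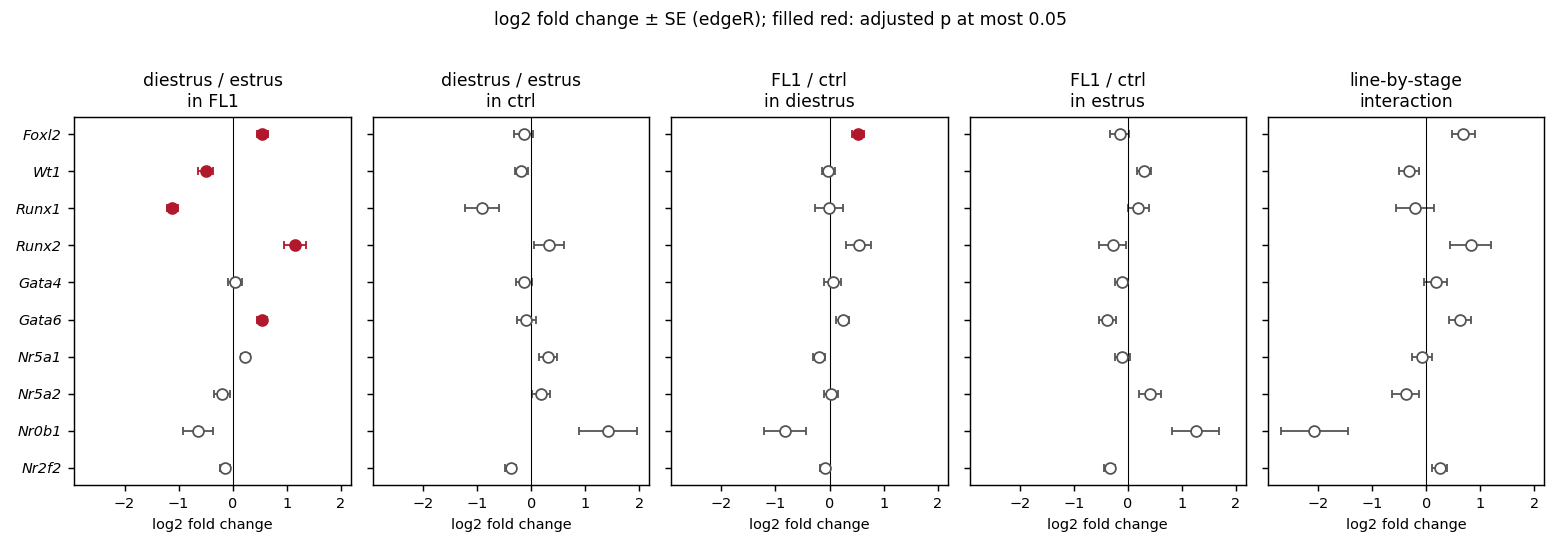
log2FC (x axis, bars are SE from edgeR) of the 10 factors (y axis) in the 4 comparisons and in the line-by-stage interaction; filled points have an edgeR adjusted p of at most 0.05. In FL1, 5 factors are filled between the stages, Foxl2 is filled between the lines in diestrus, and no factor is filled in the other panels.

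Whether the stages differed by another amount in FL1 than in ctrl was tested directly as the line-by-stage interaction. None of the 10 factors was called, in a test that called 0.0565% of 14154 genes. Foxl2 (interaction log2FC 0.69, SE 0.22, edgeR adjusted p = 0.209), Gata6 (0.62, SE 0.21, edgeR adjusted p = 0.225), Runx2 (0.82, SE 0.38, edgeR adjusted p = 0.397) and Nr0b1 (−2.07, SE 0.63, edgeR adjusted p = 0.185) had an unadjusted p under 0.05, as had 11.7% of all genes. For Foxl2, Gata6 and Runx2 the estimate of diestrus against estrus was larger in FL1 than in ctrl, and for Nr0b1 it was above 0 in ctrl and below 0 in FL1, and these differences did not pass the threshold. DESeq2 and limma-voom called none of the 10 either. Without the library that stood apart Foxl2 was called (interaction log2FC 0.84, SE 0.15, edgeR adjusted p = 0.0302), and Gata6 had 0.75 (SE 0.17, edgeR adjusted p = 0.0744). The interaction of Runx1 was −0.21 (SE 0.35, edgeR adjusted p = 0.862), and no gene of the other lists was called by edgeR (22 of 142 list entries had an unadjusted p under 0.05, and DESeq2 called 3). The 5 calls in FL1 beside none in ctrl are therefore not shown to be a difference between the lines.

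Within a library, related factors can be set against each other without any scaling between libraries. The log2 ratio of Runx1 to Runx2 was 0.30 ± 0.46 (SD, n = 5) in FL1 in estrus and −2.03 ± 0.27 in FL1 in diestrus, with ranges from −0.23 to 0.86 and from −2.32 to −1.64. In ctrl it was −0.26 ± 0.78 in estrus and −1.54 ± 0.89 in diestrus, and here the ranges overlapped, with −1.40 as the lowest library of estrus and −0.36 as the highest of diestrus. Thus Runx1 was counted about as often as Runx2 in estrus and less often in diestrus, as a description of 5 libraries each. Gata4 to Gata6 had a log2 ratio of −0.31 ± 0.30 in ctrl in estrus, −0.077 ± 0.19 in FL1 in estrus, −0.39 ± 0.34 in ctrl in diestrus and −0.59 ± 0.32 in FL1 in diestrus. Nr5a1 stayed below Nr5a2 in each of the 20 libraries, with group means between −2.26 and −1.66.

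**Figure D4:**
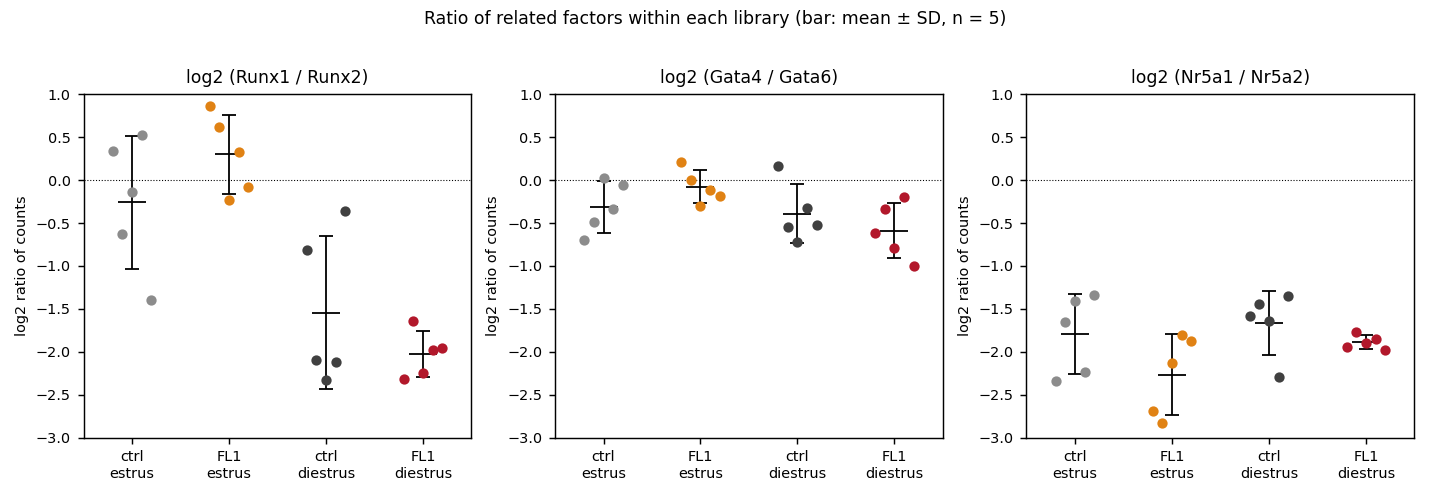
log2 ratio of counts within each library (y axis) for Runx1 to Runx2, Gata4 to Gata6 and Nr5a1 to Nr5a2 in the 4 groups (x axis), 1 point per library, with bars for mean ± SD (n = 5) and a dotted line at equal counts. Runx1 to Runx2 lies between −0.23 and 0.86 in FL1 in estrus and between −2.32 and −1.64 in FL1 in diestrus.

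Across the 20 libraries the 45 pairs among the 10 factors had Pearson r between −0.67 (Wt1 and Runx2) and 0.79 (Foxl2 and Gata6), with a median of 0.067. These are descriptions over libraries that share groups, depth and scaling. After subtraction of group means Foxl2 and Gata6 still had r = 0.77, and the library that stood apart is the lowest for both. Runx1 and Runx2 had r = −0.48 over the libraries and 0.0077 after subtraction of group means.

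**Figure D5:**
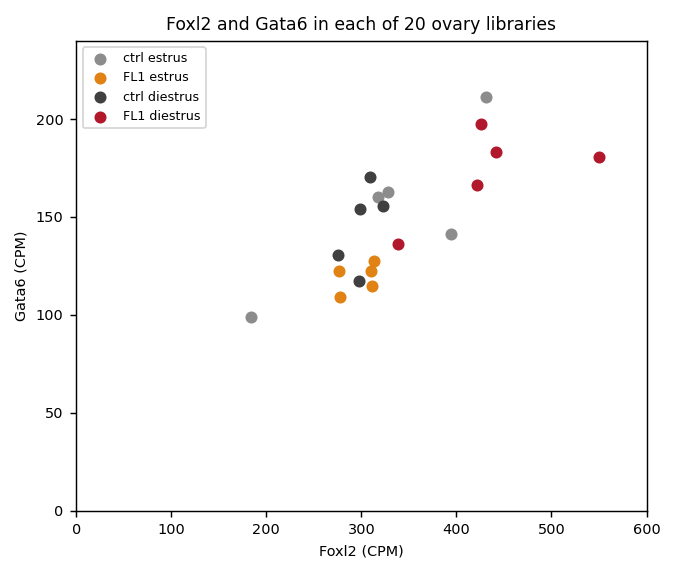
Foxl2 (x axis, CPM) against Gata6 (y axis, CPM) in the 20 libraries, coloured by group, both axes from 0. The lowest point, at 184 CPM of Foxl2 and 98.8 CPM of Gata6, is the ctrl library of replicate 5 in estrus.

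The tested genes whose log2 CPM followed each factor most closely over the 20 libraries were taken by Pearson r, and up to 3 are given for each factor. For Runx2 these were Prlr (r = 0.91), the prolactin receptor of luteal cells, Gm2a (0.91) and Pam (0.91), and after subtraction of group means Prlr still had 0.94. For Runx1 they were Prss35 (0.86), Npr3 (0.86) and Slc7a8 (0.85), which fell to 0.57, 0.56 and 0.63 after that subtraction. Foxl2 was followed by Ptges (0.83), which encodes a prostaglandin E synthase, and by Usp7 (0.81), and Gata6 by Smarca5 (0.82), Setd2 (0.80) and 6030458C11Rik (0.79). The closest genes to Wt1 were Ska3 (0.89) and Plk1 (0.85), which serve mitosis, and Cdh1 (0.83), and those to Gata4 were Usp1 (0.78), Hells (0.77) and Hnrnpa0 (0.77). Nr5a1 had Tulp2 (0.82), Cyp17a1 (0.74) and Ush1g (0.74), of which Cyp17a1 is also on the list of NR5A targets, and Nr5a2 had Bex1 (0.88), Fam3c (0.87) and Gprasp2 (0.87). Nr0b1 came with Ccn2 (0.85) and Gm10260 (0.85), and Nr2f2 with Doc2b (0.94), Trps1 (0.88) and Pygm (0.88).

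By annotation (GRCm38, GENCODE M21), Foxl2 lies on chr9:98955288-98958543, Wt1 on chr2:105126529-105173616, Nr5a1 on chr2:38692656-38714542, Nr5a2 on chr1:136842571-136960448 and Gata4 on chr14:63198922-63271692. Gata6 lies on chr18:11052064-11085635, Runx1 on chr16:92601466-92826149, Runx2 on chr17:44495987-44814797, Nr0b1 on chrX:86191764-86195947 and Nr2f2 on chr7:70351944-70366735. All 10 are protein-coding genes, and none shares the last 300 bases of its transcripts with another gene at 50 or more words of 31 bases. Genes on the opposite strand across Nr5a1, Gata6, Runx1 and Nr2f2 had at most 59 counts in a library.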

How the data were processed

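The 10 factors and all gene lists were chosen with earlier results of these data known. Per the labels and the study's methods, 3′ mRNA libraries (QuantSeq) were made from ovary RNA and reads were aligned by the authors with STAR to GRCm38; the labels also name Cuffdiff, and the counting tool and its strand setting are not given in the sources used here. The authors deposited 1 table of raw counts per sample, without normalization, for 54838 genes, of which 54723 matched the GENCODE M21 annotation by identifier. Depth was 5991223 to 10352718 counts per library. All factors but Nr0b1 had at least 147 counts in every library, and the part of counting error in their spread was not measured.

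Groups followed the labels. edgeR 4.0.16 (R 4.3.3) was fitted on the 10 libraries of each comparison, and on all 20 for the interaction, with TMM scaling, filterByExpr (minimum count 10), the quasi-likelihood test and Benjamini-Hochberg adjustment over all genes tested (threshold 0.05). Log2 CPM for correlations used a prior count of 2. Tests ran on simulated data first. Each sample is a separate mouse. The same replicate numbers in different groups mark different animals, and deviations from group means of same-numbered libraries correlated between −0.095 and 0.126, so that the numbers did not pair the samples. Alternatives were RLE scaling, DESeq2 1.42.0, weighted limma-voom (limma 3.58.1), stricter and looser count filters, all 20 libraries in 1 fit, a replicate block and leaving out each library. Named genes are all 10 factors, from each list the called genes with the smallest p (up to 4 per direction) and the strongest expressed gene (given between the stages in FL1), and the 3 genes most like each factor, of which 1 for Foxl2 and 1 for Nr0b1 are not reported here.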

Additional observations from a re-analysis of the deposited data

Results flagged for a closer look

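Dixon's test for a sample far from the others of its group was run on the 40 sets of 5 CPM values (10 factors in 4 groups), with a critical value of 0.710 for the gap over the range. It marked 2 values, and chance marks about 1 in 20 sets. Wt1 was lowest in the ctrl library of replicate 5 in estrus with 43.2 CPM (gap over range 0.773), which is the library that stood apart over all genes. Runx1 was highest in the ctrl library of replicate 5 in diestrus with 82.4 CPM (gap over range 0.775), and without that library edgeR called Runx1 between the stages in ctrl (adjusted p = 0.0112). No cause was tested for either.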

How the results depend on the processing

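Of the 5 calls of a factor in FL1 between the stages, those of Runx1, Runx2, Foxl2 and Gata6 were made under all 17 alternatives, and that of Wt1 under 16. Foxl2 between the lines in diestrus was called under 16 of 17. The number of factors called moved to 1 with DESeq2 between the lines in estrus, to 0 with all 20 libraries in 1 fit between the lines in diestrus, and to 2, 1 and 2 with all 20 libraries in 1 fit, DESeq2 and limma-voom between the stages in ctrl. The number of genes called was 531, 670 and 477 between the lines in estrus with all 20 libraries in 1 fit, with DESeq2 and with genes of at least 1 count in total. It was 891 and 846 in diestrus with DESeq2 and with genes of at least 1 count, 909, 771 and 655 between the stages in ctrl with all 20 libraries, DESeq2 and limma-voom, and 148, 17 and 31 for the interaction with DESeq2, genes of at least 1 count and limma-voom. With Spearman's rho, 12 of the 30 genes most like the factors were the same. The cause of these shifts was not tested.

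When each library was left out in turn, genes called ranged from 175 to 418 (lines in estrus), 349 to 594 (lines in diestrus), 176 to 516 (stages in ctrl), 1582 to 2316 (stages in FL1) and 0 to 15 (interaction). Factors called ranged from 0 to 1, 1 to 2, 0 to 1, 4 to 5 and 0 to 1 in the same order. Estimates that were not called crossed 0 in these ranges of log2FC: Nr5a1 between the lines in estrus −0.18 to 0.036; Wt1, Nr5a2, Gata4 and Runx1 between the lines in diestrus −0.11 to 0.067, −0.037 to 0.13, −0.072 to 0.18 and −0.15 to 0.40; Gata6 between the stages in ctrl −0.21 to 0.048; Gata4 between the stages in FL1 −0.089 to 0.12; Nr5a1 and Runx1 in the interaction −0.23 to 0.017 and −0.35 to 0.21. Runx1 between the lines in diestrus was also above 0 with limma-voom (0.22), and its interaction was 0.095 with limma-voom.

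With the replicate number as a block, which does not pair these samples, 230, 498, 259, 2020 and 12 genes were called in the same order, no call of a factor changed, and Runx1 between the lines in diestrus had a log2FC of 0.12. With at least 10 counts in every library Nr0b1 was not tested between the lines in estrus, between the stages in ctrl and in the interaction. Its low counts limit what can be said of it at this depth.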
